A study of Glycine max with 10 samples.

Results

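The transcripts described here belong to 8 soybean genes of the seed maturation program, SLE2, MAT1, PGMPM18, PM13, PM23, PM24, PM30 and PM39. Their probe sets were taken by gene symbol, but the 8 genes were chosen with earlier results of these data known. Counts of members set beside those of all probe sets are therefore a description. Every probe set whose only symbol in the probe-to-gene table was one of these 8 was taken, which gave 12 of the 37593 probe sets on the array. SLE2, MAT1, PGMPM18, PM24 and PM39 had 1 probe set each, PM13 and PM23 had 2 each, and PM30 had 3. Where a gene had several, they are told apart below by the parts of their identifiers that differ, the prefix (Gma or GmaAffx) and the suffix (S1_at, S1_a_at or S1_s_at). The questions were when each transcript began to accumulate between 25 and 50 days after flowering (DAF), and which of them declined.

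RNA was profiled in whole developing seeds of the soybean variety Evans, a single unmodified genotype grown in the field near Ames, Iowa, from pods whose flowers had been tagged at mid-plant nodes on opening. The time points were 25, 30, 40, 45 and 50 DAF, with 2 biological replicates per time point and 1 Affymetrix Soybean Genome Array per RNA sample, 10 arrays in all. Each replicate pooled pods from several plants and each RNA pooled several seeds picked for uniform size, so plant-to-plant variation was not measured. The third time point is named 40 DAF in the sample labels, which are followed here, although the study's text in places names an earlier day. No group received a treatment, and age was the only planned difference between groups.

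Late embryogenesis abundant (LEA) proteins are small, very hydrophilic proteins that plants make late in seed development, when the embryo fills with reserves and prepares to lose water. They are known for keeping other proteins and membranes intact in a drying seed, and many of their genes respond to the hormone abscisic acid. Dehydrins are one LEA family. The soybean PM genes were named as seed maturation proteins, a label that also takes in proteins outside the LEA families.

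Among the 8 genes, SLE2 (synonyms Em, GmPM11 and LEA1) encodes a group 1 LEA protein of the Em type first described in wheat embryos. MAT1 (synonyms LEA-D11 and dehydrin) encodes a dehydrin. PM30 encodes a group 3 LEA protein. PM13 is matched in the study's annotation to an Arabidopsis caleosin, a calcium-binding protein of the oil bodies in which seeds store lipid. PGMPM18, PM23, PM24 and PM39 carry only their seed maturation names here. In the RefSeq gene table of the Glycine_max_v4.0 assembly, SLE2 and PGMPM18 lie on chromosome 3, MAT1 on 7, PM39 on 9, PM13, PM23 and PM24 on 10, and PM30 on 13. No members adjoin one another. The nearest pair, PM24 and PM23, has 132 annotated genes between them.

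Signals are given after rescaling each array to the same median of 309.9, and a log2 change of 1 is a doubling of the rescaled signal. Array medians as deposited lay between 303.8 and 325.2 up to 45 DAF and at 220.8 and 222.8 at 50 DAF, so rescaling raised the 50 DAF signals, which matters for small changes. The correlation between replicates was 0.880 at 45 DAF and 0.919 to 0.927 at the other ages, and the median standard deviation of log2 signals was 0.423 at 45 DAF and 0.227 to 0.264 otherwise. The members' changes to and from 45 DAF are therefore also given without one of its arrays, where the remaining array has no replicate and its spread is taken from the other ages. Of 7 probe sets for products of embryo storage cells, the glycinins GY1, GY2 and GY5 and the oleate desaturase FAD2-1A, the summed signal stayed between 297438 and 446637 on all arrays. Of 4 probe sets for the seed coat and seed surface, the summed signal was 111312 and 120892 at 25 DAF, 71260.2 and 108752 at 30 DAF, 61134 and 54368 at 40 DAF, 56948 and 15576 at 45 DAF, and 813 and 581 at 50 DAF. The part of this fall in the summed signal in the results below was not tested.

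Of the 12 probe sets, 7 differed over time by the overall F-test of limma (adjusted p under 0.01), against 24.0 percent of all probe sets. These 7 cover 6 genes, SLE2, MAT1, PGMPM18, PM13 (both probe sets), PM24 and PM39. All 7 rose, and each was called higher than at 25 DAF from 40 DAF on, an onset by 40 DAF that 1.17 percent of all probe sets met. By 50 DAF, 9 of the 12 were higher than at 25 DAF and 2 were lower (limma's moderated test, adjusted p under 0.05). Among all probe sets 24.6 percent were higher and 19.3 percent lower. The median log2 change over the 12 was 6.22, and over all probe sets 0.17. In RNA from whole seeds a change in the share of a cell type and a change in the RNA per cell cannot be told apart.

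SLE2 went furthest. Its signal was 75.6 and 66.1 at 25 DAF, 336 and 186 at 30 DAF, 15586 and 26479 at 40 DAF, 10691 and 49522 at 45 DAF, and 83349.9 and 80105 at 50 DAF. Both arrays of each time point lay above both of the one before, except that replicate 1 at 45 DAF fell below both 40 DAF arrays. The log2 change from 25 to 50 DAF was 10.17 (SE 0.58, adjusted p = 2.32e-05), a fold of 1155. Because the 25 DAF signals were low, that size depends on how low signals are treated, and with 50 added to every signal it was 9.32.

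The signal of MAT1 was 158 and 221 at 25 DAF, 255 and 483 at 30 DAF, 13020.0 and 14691 at 40 DAF, 4297 and 54144 at 45 DAF, and 104675 and 89217 at 50 DAF. The 25 and 30 DAF arrays did not overlap, and the 45 DAF replicates stood on either side of both 40 DAF arrays. The dehydrin transcript rose by 9.02 on the log2 scale from 25 to 50 DAF (SE 0.74, adjusted p = 6.52e-05).

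PGMPM18 gave 266 and 291 at 25 DAF, 717 and 339 at 30 DAF, 6637 and 9761 at 40 DAF, 4031 and 33772 at 45 DAF, and 65335 and 59831 at 50 DAF. PM24 gave 589 and 522 at 25 DAF, 2155 and 931 at 30 DAF, 9555 and 13418 at 40 DAF, 6172 and 46409.5 at 45 DAF, and 88977 and 81547 at 50 DAF. Both transcripts were higher on each 30 DAF array than on either 25 DAF array, but the 30 DAF replicates differed by more than the 25 DAF ones. PM39 gave 546 and 629 at 25 DAF, 911 and 579 at 30 DAF, 7489 and 7935 at 40 DAF, 4284 and 39231 at 45 DAF, and 83035 and 76019 at 50 DAF. It was the one riser besides PM13 (GmaAffx) whose 25 and 30 DAF arrays overlapped. From 25 to 50 DAF the log2 changes were 7.81 (SE 0.75, adjusted p = 1e-04) for PGMPM18, 7.26 (SE 0.74, adjusted p = 0.000128) for PM24 and 7.08 (SE 0.73, adjusted p = 0.000133) for PM39.

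The caleosin-matched gene PM13 was measured by 2 probe sets that both rose but on different schedules. The Gma probe set gave 1154 and 1082 at 25 DAF, 2933 and 1608 at 30 DAF, 35242 and 44927 at 40 DAF, 30845 and 61867 at 45 DAF, and 109135 and 93966 at 50 DAF. The GmaAffx probe set gave 170.3 and 187 at 25 DAF, 456 and 183 at 30 DAF, 1209 and 1906 at 40 DAF, 1047 and 3965 at 45 DAF, and 10307 and 11505 at 50 DAF. The Gma probe set had changed by 5.15 (SE 0.37) on the log2 scale by 40 DAF and by 6.50 (adjusted p = 2.32e-05) by 50 DAF, whereas the GmaAffx one had changed by 3.09 (SE 0.58) and then 5.93 (adjusted p = 0.000108). Whether the probe sets detect different transcripts was not tested. Signals of the Gma probe set at 50 DAF were among the brightest of the members, and compression of such signals, on which the share reached by 40 DAF depends, could not be examined, since the deposited table holds no saturation flags.

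**Figure D1:**
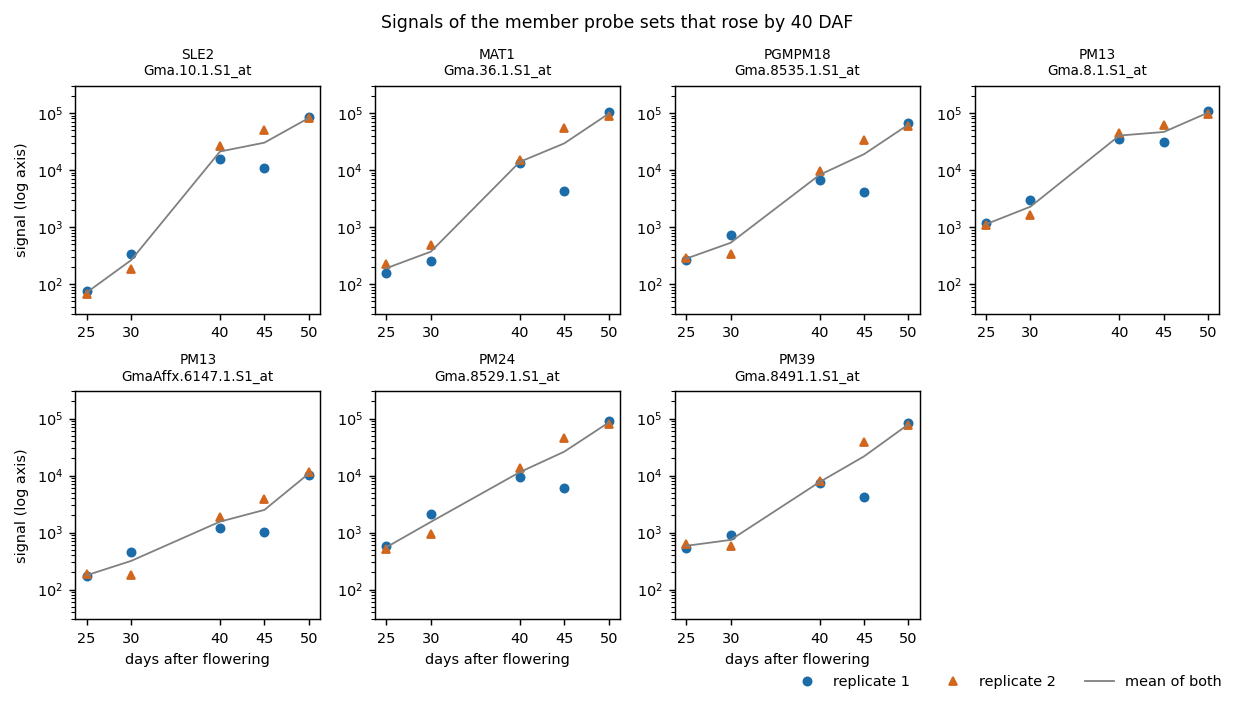
Rescaled signal (log axis) against days after flowering for the 7 probe sets that were higher than at 25 DAF from 40 DAF on, with a circle for replicate 1, a triangle for replicate 2 and a line through the arithmetic means. In most panels the 45 DAF replicates lie far apart, for SLE2 at 10691 and 49522. Those of PM13 (Gma) lie closest, at 30845 and 61867. The 50 DAF replicates lie close together in each panel.

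No member was called between 25 and 30 DAF. Limma called 0 of the 12, and 2 had an unadjusted p under 0.05. These were SLE2, with a log2 change of 1.82 (SE 0.58, unadjusted p = 0.0113), and PM13 (Gma), with 0.96 (SE 0.37, unadjusted p = 0.0279). After adjustment over all probe sets both p-values were 1, and only 0.0106 percent of all probe sets were called in this interval. The median log2 change of the 12 was 0.50, and that of all probe sets -0.03. At 30 DAF replicate 1 exceeded replicate 2 for 6 of the 7 risers, with MAT1 the exception, against 51.2 percent of all probe sets. In the same pair of arrays the seed coat transcript SCB1, a BURP-domain protein, gave 847 in replicate 1 and 19958 in replicate 2. Both probe sets of SSTP-1, of the same marker list, were also lower in replicate 1, at 12881 against 39728 and 454 against 530. The seed surface transcript HPS went the other way, at 57078 in replicate 1 and 48536 in replicate 2. The part of these differences in the 30 DAF values was not tested.

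The interval from 30 to 40 DAF was the longest between neighbouring time points. Among such intervals it held the largest log2 change of every riser other than PM13 (GmaAffx). For that probe set the change from 45 DAF to the last time point was slightly larger, at 2.42 against 2.40. Changes per day were not compared. SLE2 rose by 6.34 (SE 0.58, adjusted p = 0.00403), MAT1 by 5.30 (SE 0.74, adjusted p = 0.0164), PM13 (Gma) by 4.20 (SE 0.37, adjusted p = 0.00365) and PGMPM18 by 4.03 (SE 0.75, adjusted p = 0.0447) on the log2 scale. These 4 of 12 compare with 0.678 percent of all probe sets called higher. For the other risers the log2 change was 3.41 for PM39 (adjusted p = 0.0669), 2.999 for PM24 (adjusted p = 0.0978) and 2.40 for PM13 (GmaAffx) (adjusted p = 0.0921), none called. The number of calls moved with that of the whole array, where 436 of 37593 probe sets were called in either direction. With both 45 DAF arrays left out of the fit, all 7 risers and 2456 of all probe sets were called. Without replicate 2 at 40 DAF 0 members and 0 of all probe sets were called, and without replicate 2 at 30 DAF only PM13 (Gma) and 12 of all probe sets were.

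Against 25 DAF all 7 risers were called higher at 40 DAF, where 1.55 percent of all probe sets were. The log2 changes ran from 3.09 for PM13 (GmaAffx) (adjusted p = 0.0287) to 8.17 for SLE2 (adjusted p = 0.000522). SLE2 and PM13 (Gma) held this call whichever single array was left out, and without either array of 25 or 40 DAF they were the only 2 called. Without the variance trend in limma's prior 0 of the 7 onset calls held, and in that fit only 12 of all 37593 probe sets were called between 25 and 40 DAF.

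An order of the risers at 40 DAF can be read from how much of each rise was complete by then, as a description. On the log2 scale SLE2 had covered 80.3 percent of the distance between its 25 and 50 DAF means, with a range of 76.1 to 84.4 over the 8 combinations of single arrays. PM13 (Gma) had covered 79.3 percent (75.2 to 83.5), MAT1 68.9 percent (66.2 to 71.5), PGMPM18 62.1 percent (57.8 to 66.5) and PM24 59.9 percent (55.5 to 64.3). PM39 stood at 52.5 percent (50.7 to 54.2) and PM13 (GmaAffx) at 52.1 percent (45.3 to 58.9). Ranges of neighbours in this order overlap, apart from PM13 (Gma) against MAT1 and PM24 against PM39. At 40 DAF the Em-type LEA transcript and PM13 (Gma) thus stood ahead of MAT1, and MAT1 ahead of PM24 and PM39, on every combination of arrays. These combinations do not address compression of bright signals, which could not be examined. By 30 DAF, where no member was called, the shares gave another order. PM24 stood at 18.6 percent, SLE2 at 17.9, PM13 (Gma) at 14.7 and PM13 (GmaAffx) at 11.7. PGMPM18 stood at 10.6, MAT1 at 10.1 and PM39 at 4.39 percent. The replicates of PM24 (25.9 and 11.4 percent) and MAT1 (7.43 and 13.0 percent) overlapped. At 50 DAF PM13 (Gma) ranked 5 and 2 by signal among all probe sets, MAT1 6 and 5, PM24 16 and 17, SLE2 24 and 20, and PM39 25 and 27.

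The scale matters to the order at 40 DAF. Without centring, PM13 (Gma) stood at 86.5 percent and SLE2 at 84.8 percent, so that the leading pair changed places. With 50 added to every signal they also did, at 80.2 and 79.4 percent. On the linear scale most of every rise came after 40 DAF. PM13 (Gma) had then reached 38.8 percent of its rise, SLE2 25.7 percent, MAT1 14.1 percent and PM39 9.03 percent, with the other 3 between 12.7 and 12.9 percent.

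**Figure D2:**
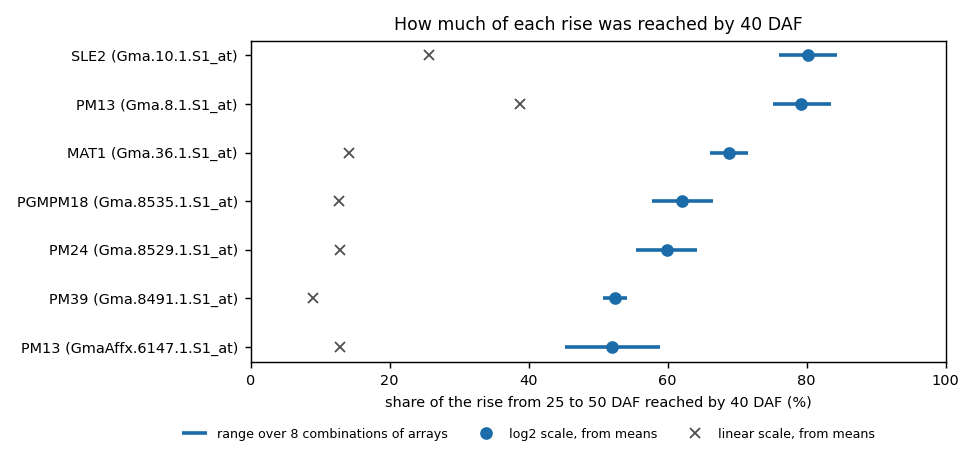
Share of the rise from 25 to 50 DAF reached by 40 DAF, in percent, for the 7 risers, on the log2 scale from the means (circles), with bars over the 8 combinations of single arrays, and on the linear scale (crosses). SLE2 at 80.3 percent and PM13 (Gma) at 79.3 percent lead on the log2 scale and PM39 and PM13 (GmaAffx) trail at about 52 percent.

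At 45 DAF the replicates split. In 7 of the 12 members, the risers, replicate 1 lay below both 40 DAF arrays and replicate 2 above both. This pattern was met by 13.2 percent of all probe sets. Replicate 2 exceeded replicate 1 12.6-fold for MAT1, 9.16-fold for PM39, 8.38-fold for PGMPM18, 7.52-fold for PM24, 4.63-fold for SLE2, and 3.79-fold and 2.01-fold for the PM13 probe sets. Replicate 2 had gone 64.0 to 70.2 percent of the log2 distance from the 40 to the 50 DAF mean for SLE2, MAT1, PGMPM18, PM24 and PM39, and 47.2 and 48.7 percent for PM13. Over the 4214 probe sets that were higher at 50 than at 40 DAF by more than 2 on the log2 scale, the medians were 42.5 percent for replicate 2 and -2.59 percent for replicate 1. The seed surface transcript HPS, a hydrophobic protein, gave 55179 in replicate 1 and 14670.1 in replicate 2. For HPS replicate 2 was nearer to the 50 DAF values, which were 242 and 144. So it was for 1 SSTP-1 probe set, at 1400 in replicate 1 and 601 in replicate 2, with 72.9 and 18.7 at 50 DAF. The other SSTP-1 probe set gave 301 and 293 at 45 DAF, and 427 and 355 at 50 DAF. SCB1 was already low at 40 DAF, at 126 and 96.2. It gave 67.8 and 11.8 at 45 DAF, and 71.6 and 63.5 at 50 DAF, too low to place the replicates.

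**Figure D3:**
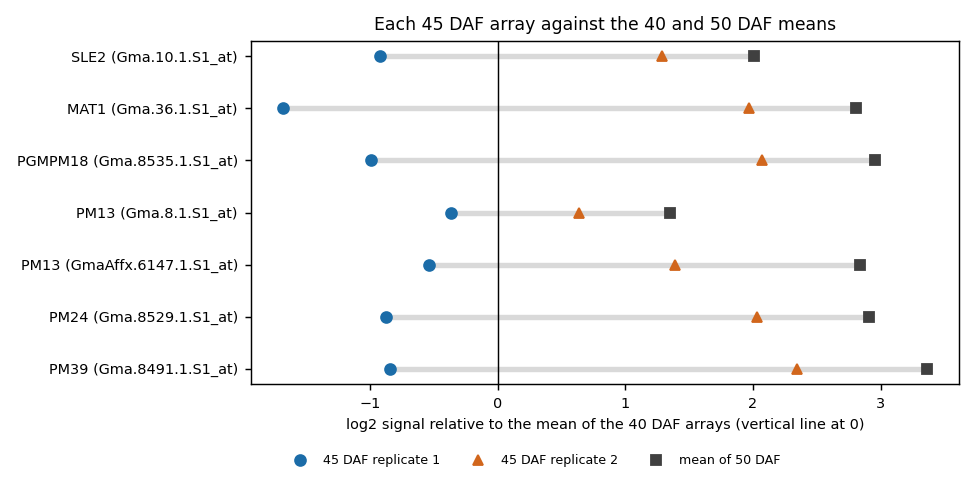
Log2 signal of each 45 DAF replicate (circle for replicate 1, triangle for replicate 2) and of the 50 DAF mean (square), relative to the 40 DAF mean at 0, for the 7 risers. Every circle lies below 0 and every triangle above it, for MAT1 at -1.69 and 1.97.

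No member was called between 40 and 45 DAF. Limma called 0 of the 12, with 0 at an unadjusted p under 0.05, and 0 of all probe sets. The log2 changes of the 7 risers lay between 0.13 for PM13 (Gma) and 0.75 for PM39. Without replicate 1 at 45 DAF, 1194 of all 37593 probe sets and 4 members were called, all 4 higher, namely PM39 (2.41, adjusted p = 0.00222), PM24 (2.16, adjusted p = 0.0225), PGMPM18 (2.13, adjusted p = 0.0225) and MAT1 (1.80, adjusted p = 0.0162). Without replicate 2 no member and 0 of all probe sets were called, and the changes of all 7 risers turned negative, from -0.47 for PM13 (Gma) to -1.52 for MAT1. Against 25 DAF, 7 of the 12 were called higher at 45 DAF, against 2.87 percent of all probe sets. These 7 are the risers, whose definition includes this call. Their changes from 25 DAF stayed positive without either 45 DAF array. The sizes depended on the array kept. For MAT1 the change from 25 DAF was 8.01 without replicate 1 and 4.69 without replicate 2.

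The last step, from 45 to 50 DAF, was a called rise for 7 of the 12 members, the risers, against 18.6 percent of all probe sets. It was 2.66 for MAT1 (SE 0.74, adjusted p = 0.024), 2.62 for PM39 (adjusted p = 0.0244), 2.42 for PGMPM18 (adjusted p = 0.0357), 2.42 for PM13 (GmaAffx) (adjusted p = 0.0127), 2.33 for PM24 (adjusted p = 0.0403), 1.83 for SLE2 (adjusted p = 0.0389) and 1.21 for PM13 (Gma, adjusted p = 0.0332). The sizes rested on which 45 DAF array was kept. The change of MAT1 was 1.005 without 45 DAF replicate 1 and 4.32 without replicate 2, and that of SLE2 was 0.68 and 2.98. Without replicate 1, MAT1 (adjusted p = 0.0472) and PM39 (adjusted p = 0.0327) were the only risers called, while 7722 of all probe sets were called, against 11743 with all arrays. Without replicate 2 all 7 risers were called, and 13193 of all probe sets. Without replicate 1 at 50 DAF none of the risers kept its call, and without replicate 2 at 50 DAF only MAT1 did. Fewer of all probe sets were called in these runs as well. After quantile normalization MAT1 was the only riser still called. As deposited PM13 (GmaAffx) was the only riser called, and MAT1 was not.

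A comparison of 50 with 40 DAF, added once the 45 DAF arrays had been seen to stand apart, avoids them. Of the 12 members, the 7 risers were higher at 50 DAF, against 21.5 percent of all probe sets. The log2 change was 3.37 for PM39 (SE 0.73, adjusted p = 0.0064), 2.96 for PGMPM18 (adjusted p = 0.013), 2.91 for PM24 (adjusted p = 0.0136), 2.84 for PM13 (GmaAffx) (adjusted p = 0.00473), 2.80 for MAT1 (adjusted p = 0.0161), 2.01 for SLE2 (adjusted p = 0.023) and 1.35 for PM13 (Gma, adjusted p = 0.0183). PM23 (S1_at) and PM30 (GmaAffx), described below, were lower, against 15.2 percent of all probe sets. Without replicate 2 at 40 DAF, or without replicate 1 at 50 DAF, only PM13 (GmaAffx) among the members kept its call. Fewer of all probe sets were called in these runs too. The calls of SLE2 and PM13 (Gma) also depended on the scaling. After quantile normalization their changes were 1.57 (adjusted p = 0.0614) and 1.03 (adjusted p = 0.057), and as deposited 1.47 (adjusted p = 0.0696) and 0.81 (adjusted p = 0.11).

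PM30 behaved differently. Its Gma S1_at probe set was already high in the youngest seeds and changed little. It gave 60614 and 74786 at 25 DAF, 65341 and 55475 at 30 DAF, 95272 and 73842 at 40 DAF, 73135 and 80535.2 at 45 DAF, and 123039.6 and 101424 at 50 DAF. Only the 50 DAF arrays stood above all others. The group 3 LEA transcript was 0.73 higher at 50 than at 25 DAF on the log2 scale (SE 0.25, adjusted p = 0.0392). Compression of such bright signals could not be examined here either.

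The Gma S1_s_at probe set of PM30 carries the suffix of probe sets that can match transcripts of several genes. It gave 44304 and 49437 at 25 DAF, 44631 and 38462 at 30 DAF, 71619 and 59577 at 40 DAF, 53854 and 66090.3 at 45 DAF, and 109269 and 84983 at 50 DAF, a log2 change of 1.04 from 25 to 50 DAF (SE 0.24, adjusted p = 0.00676). Both calls depended on the scaling of the 50 DAF arrays. Without centring the changes were 0.27 (adjusted p = 0.443) and 0.58 (adjusted p = 0.0857), and after quantile normalization 0.43 (adjusted p = 0.0969) and 0.61 (adjusted p = 0.0346). The median of all probe sets moved with it, from 0.17 after centring to 0.04 after quantile normalization and -0.29 as deposited. Without replicate 1 of 25 or of 50 DAF neither probe set was called.

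The GmaAffx probe set of PM30 went the other way. It gave 1144 and 1243 at 25 DAF, 1051 and 1033 at 30 DAF, 1062.5 and 1750.2 at 40 DAF, 1459 and 647 at 45 DAF, and 478 and 622 at 50 DAF. The 50 DAF arrays were lower than all others, and replicate 2 at 45 DAF came next. It fell by 1.13 on the log2 scale from 25 to 50 DAF (SE 0.39, adjusted p = 0.0426) and by 1.32 from 40 to 50 DAF (SE 0.39, adjusted p = 0.0264). Its fall from 25 DAF was larger without centring, with a change of -1.59 (adjusted p = 0.0105). It was not called without any one array of 25, 30 or 50 DAF, where adjusted p ran from 0.0643 to 0.231, nor without the variance trend (adjusted p = 0.111). The same gene symbol therefore covers probe sets of opposite direction, and which of them reads the annotated gene was not tested.

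PM23 fell late on one probe set, while the call on the other depended on the scaling. The S1_at probe set gave 2154 and 2072 at 25 DAF, 2240.1 and 2058 at 30 DAF, 1753 and 1729 at 40 DAF, 1942 and 1688 at 45 DAF, and 1188 and 986 at 50 DAF. Only the 50 DAF arrays stood clear of the rest. The change from 25 to 50 DAF was -0.96 (SE 0.19, adjusted p = 0.00257), from 45 to 50 DAF -0.74 (adjusted p = 0.0151) and from 40 to 50 DAF -0.69 (adjusted p = 0.0177). The fall from 25 DAF was called under every alternative run, with changes of -1.33 after quantile normalization and -1.43 as deposited. Among all probe sets 12.6 percent were lower at 50 than at 45 DAF.

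The S1_a_at probe set of PM23 has the suffix used where all matched transcripts belong to 1 gene. It gave 4125 and 3347 at 25 DAF, 4522 and 4126 at 30 DAF, 4029 and 4555 at 40 DAF, 3914 and 2832.5 at 45 DAF, and 3694 and 3329.8 at 50 DAF. The 25 and 50 DAF arrays overlapped, and the change was -0.08 (SE 0.20, adjusted p = 0.772). After quantile normalization it was -0.63 and called (adjusted p = 0.0363), and as deposited it was -0.54 (adjusted p = 0.0545). From 40 to 50 DAF its change was -0.29 (adjusted p = 0.298) after centring, but it was called lower after quantile normalization (-0.96, adjusted p = 0.00781) and as deposited (-0.82, adjusted p = 0.0114). No PM23 probe set gave a called rise in any comparison.

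**Figure D4:**
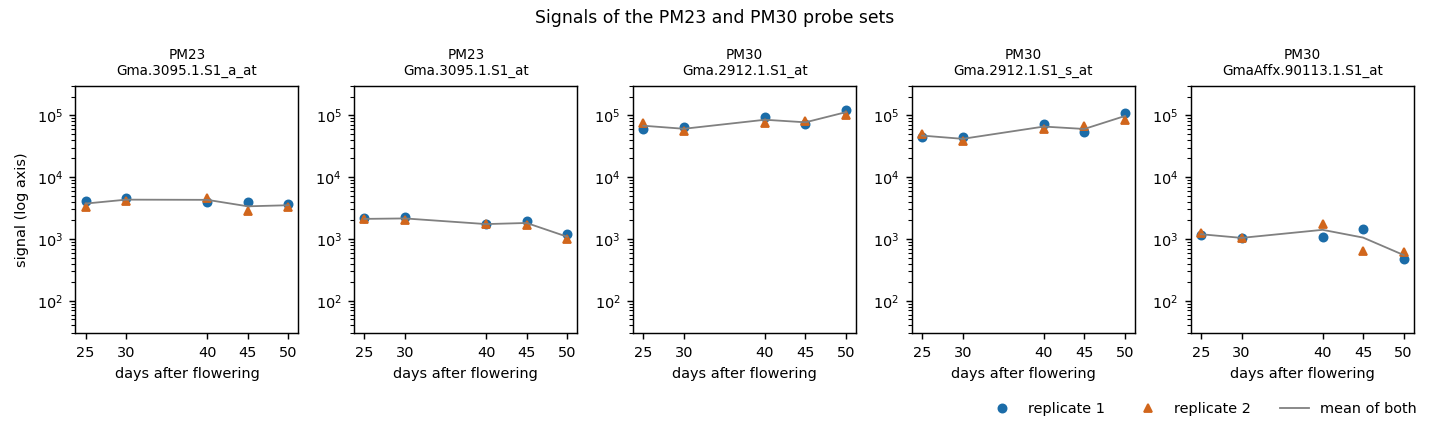
Rescaled signal (log axis) against days after flowering for the PM23 and PM30 probe sets, with circles and triangles for replicates 1 and 2 and a line through the arithmetic means, on the axis range used for the risers. The PM30 S1_at and S1_s_at probe sets of the Gma prefix stay between 38462 and 123039.6, and PM23 (S1_at) and PM30 (GmaAffx) end at their lowest values.

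**Figure D5:**
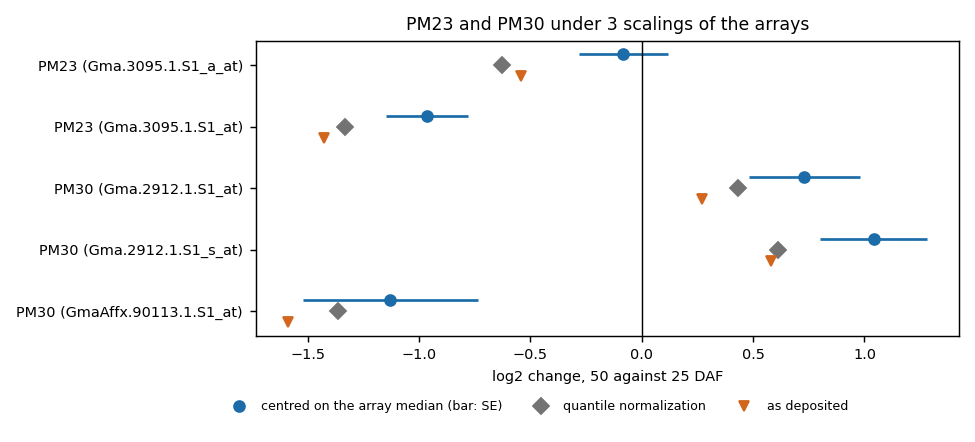
Log2 change from 25 to 50 DAF of the 5 PM23 and PM30 probe sets under 3 scalings, centred on the array median (circles, with bars of 1 SE), quantile normalized (diamonds) and as deposited (triangles). No probe set changes sign, and all 5 move to the left when centring is dropped, PM30 (Gma S1_at) from 0.73 to 0.27.

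The 7 risers moved together across arrays. Pairwise correlations of their centred log2 signals over the 10 arrays ran from 0.949 to 0.998 over 21 pairs, as a description, since the arrays share their scaling and the same late rise. The probe sets most like SLE2, among 1137 with an informative symbol, were PM13 (Gma) at r = 0.998, both probe sets of PM3 at 0.996 and 0.993, PM32 at 0.991 and PM28 at 0.991. Of these 5, 4 lay outside the 8 genes, and all carried seed maturation symbols. For the falling PM30 probe set the closest of 1135 were P5CR, a proline synthesis enzyme, at 0.961, WRKY7, a transcription factor, at 0.958, L1 at 0.938, PTF1 at 0.921 and PRO2 at 0.920.

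The other genes with LEA or seed maturation symbols, 26 probe sets of 22 genes, went largely the way of the risers, with smaller changes. From 25 to 50 DAF 25 were higher and 0 lower, with a median log2 change of 3.03. From 30 to 40 DAF 5 were higher, PM3 (both probe sets), PM32, PM41 and PM28. PM3 rose by 5.66 (adjusted p = 5.97e-05) and 5.21 (adjusted p = 7.76e-05) from 25 to 50 DAF, PM32 by 4.93 (adjusted p = 6.85e-05) and PM41 by 4.55 (adjusted p = 7.54e-05). The 1 probe set not called was LEA-2, with signals of 2043.5 and 1466 at 25 DAF, 3600.5 and 3123 at 40 DAF, and 1819 and 1995 at 50 DAF. The 45 DAF split was present in 18 of the 26. At 30 DAF replicate 1 exceeded replicate 2 in all 26.

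Storage protein genes, 11 probe sets of 7 glycinin and beta-conglycinin genes, did not share the late rise. From 25 to 50 DAF 2 were higher and 2 lower, with a median log2 change of 0.20. The 2 that rose were GY7, by 2.56 (adjusted p = 0.000893), and 1 of the CG-1 probe sets, by 2.72 (adjusted p = 0.000469). GY3, a glycinin, fell by 4.85 (adjusted p = 0.00022). The GY1, GY2, GY5 and CG-BETA-1 probe sets were already bright at 25 DAF, with means of 35152 to 83297. Compression of such signals could not be examined. The 45 DAF split was present in 2 of the 11, and at 30 DAF replicate 1 exceeded replicate 2 in all 11, as it did in the other maturation genes.

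Of the regulators of seed maturation searched for, which included ABI, LEC, FUS3 and ABF symbols, LEC1-A was the one found with its own symbol. LEC1 is a subunit of the transcription factor NF-Y that promotes embryo and seed maturation programs in Arabidopsis. LEC1-A signals were 3406 and 3363 at 25 DAF, 3383 and 3783 at 30 DAF, 1688 and 1032 at 40 DAF, 1481.5 and 1189 at 45 DAF, and 83.3 and 209 at 50 DAF. Both 45 DAF arrays lay between the 40 DAF arrays. It fell by 4.68 from 25 to 50 DAF (SE 0.41, adjusted p = 7.75e-05) and by 3.32 from 40 to 50 DAF (adjusted p = 0.000523), whereas from 25 to 40 DAF its change was -1.36 (adjusted p = 0.112). Most of its fall thus came after 40 DAF on the log2 scale.

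Of the 4 seed coat and seed surface probe sets, 3 were lower at 50 than at 25 DAF, on different schedules. SCB1 gave 18531 and 16010.0 at 25 DAF, 126 and 96.2 at 40 DAF, and 71.6 and 63.5 at 50 DAF, a log2 change of -7.29 by 40 DAF (adjusted p = 0.0218). SSTP-1, a subtilisin-type protease, on 1 of its 2 probe sets fell by 4.21 from 30 to 40 DAF (adjusted p = 0.0262), the interval in which SLE2 rose by 6.34. The other SSTP-1 probe set gave 427 and 444 at 25 DAF and 427 and 355 at 50 DAF and was not called over time. HPS gave a change of 0.02 from 25 to 40 DAF and fell by 8.23 from 40 to 50 DAF (adjusted p = 4.84e-05). The embryo storage markers were high on every array, and 1 of their 7 probe sets, GY5, was lower at 50 than at 25 DAF (-0.76, adjusted p = 0.0468).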

How the data were processed

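Total RNA from whole seeds was labelled and hybridised to Affymetrix Soybean Genome Arrays. The authors produced the deposited intensity values with Microarray Suite 5.0 as signals on a linear scale and scaled each array to a set mean. The deposited table holds 37593 soybean probe sets without detection calls, with mean signals of 1344.3 to 1425.5 per array, and its number of arrays (10) limits the precision.

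From each log2 signal the array median was subtracted. Following the study's methods, the model held fixed effects of age and replicate, and it was fitted to the whole table with limma 3.58.1 in R 4.3.3, with a variance trend (residual degrees of freedom 4, prior 5.08), after the script had been tested on simulated data. P-values were adjusted by Benjamini-Hochberg over all probe sets, with thresholds of 0.01 (F-test) and 0.05 (pairwise). All pairwise tests are two-sided. Onset was the earliest time point called higher than 25 DAF with all later ones also higher.

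Gene symbols came from the probe-to-gene table (1 symbol for 8677 probe sets, several for 370, none for 28546). All member probe sets are named, and of each comparison list at most 4 with the lowest F-test p, beside cell type markers, the exceptions LEA-2 and PM28, and the 5 probe sets most correlated with SLE2 and with the member that fell most. PM28, LEA-2 and HPS as a 45 DAF example were picked out after values were seen. Members, lists and tests were chosen with earlier results of these data known. Alternatives changed the block, the scaling, the variance prior, a pseudocount of 50, a filter on dim probe sets, the threshold, and each array in turn. Leaving out both 45 DAF arrays and the comparison of 50 with 40 DAF were added after seeing the data. The check of pairing, the correlation of replicate differences between time points, gave -0.0336 to 0.0302 (10 pairs). No member sequences or coordinates are given, since no sequence table and no genome build of the files was used here.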

Additional observations from a re-analysis of the deposited data

How the results depend on the processing

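With 2 arrays per time point, 1 array decided many calls, among all probe sets as well as among the members. The cause of the changes below was not tested. Leaving out each array in turn, the members called numbered 7 to 10 over time, 0 to 7 from 30 to 40 DAF, 0 to 4 from 40 to 45 DAF, 0 to 10 from 45 to 50 DAF, 2 to 7 for 40 and 2 to 8 for 45 against 25 DAF, 8 to 11 for 50 against 25 DAF, 1 to 9 for 50 against 40 DAF and 2 to 7 for onset by 40 DAF. Without the variance trend the counts were 0 over time, 0 from 30 to 40 DAF, 0 from 45 to 50 DAF, 0 for 40 and 45 against 25 DAF, 0 for onset by 40 DAF, 2 for 50 against 40 DAF and 9 for 50 against 25 DAF. Of all 37593 probe sets that fit called 0 over time, 0 from 30 to 40 DAF and 0 for 45 against 25 DAF, 12 for 40 against 25 DAF, but 8228 from 45 to 50 DAF, 11284 for 50 against 40 DAF and 14663 for 50 against 25 DAF. At the stricter threshold of 0.01, 2 members were called from 30 to 40 DAF, against 48 of all probe sets, and 0 from 45 to 50 DAF, against 6262. For 40 and 45 against 25 DAF 3 and 4 members were called, against 147 and 243 of all probe sets. For 50 against 40 DAF it was 2, against 8612. For onset by 40 DAF the count of members was 3. From 45 to 50 DAF, 2 members were called after quantile normalization and 3 as deposited, against 8 after centring. Of all probe sets 9401, 11422 and 11743 were called, in the same order. With both 45 DAF arrays left out, 7 members were called from 30 to 40 DAF, against 4, and 2456 of all probe sets, against 436.

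The reported values that changed sign were uncalled. They include the 40 to 45 DAF changes of all 7 risers, which were negative without 45 DAF replicate 2, as given above. PM23 (S1_a_at) changed from 30 to 40 DAF by 0.043 after quantile normalization, 0.0045 as deposited, 0.015 without 30 DAF replicate 2 and -0.23 to 0.21 without 1 array, against -0.01 as reported. From 45 to 50 DAF it changed by -0.54 after quantile normalization, -0.43 as deposited and -0.11 to 0.26 without 1 array, against 0.07. PM30 (GmaAffx) changed from 30 to 40 DAF by -0.059 to 0.84 without 1 array, against 0.39.

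Replicate differences were close to uncorrelated between time points, which cannot settle whether the replicate numbers marked a block. The block was kept as in the study. Without the replicate block 9 members were called over time, 4 from 30 to 40 DAF, 9 from 45 to 50 DAF, 11 for 50 against 25 DAF and 7 for onset by 40 DAF. Of all probe sets that fit called 10211 over time, 667 from 30 to 40 DAF, 12294 from 45 to 50 DAF and 16985 for 50 against 25 DAF.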
